A study of Penicillium oxalicum with 72 samples.

Results

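ClrA is the product of POX03837, a gene of the filamentous fungus Penicillium oxalicum, and its transcript was followed through all 72 libraries of a carbon source experiment. It is 1 of the 9821 genes listed in the files and was taken by its identifier. All libraries came from hyphae of strain ΔPoxKu70, which lacks PoxKu70 and served as the parent throughout, so no library of a strain with an intact gene was compared. The identifier of PoxKu70 was not given in the sources used here, and its transcript was not analysed here. Hyphae grown on glucose were washed and moved to a basic medium holding 1% (w/v) of 1 carbon source, and were harvested 4, 12, 24 and 48 h after the transfer. The carbon sources were Avicel (AV, a microcrystalline cellulose), wheat bran (WB), methyl cellulose (MC), 2-hydroxyethyl cellulose (HEC) and glucose (GLU), and a medium with no carbon source (NC) was the control. Each of the 24 conditions had 3 replicates. The study describes its replicates as biological, but the labels do not say whether they came from separate cultures, and if they did not, p-values measure a spread that may be technical. The labels of some libraries contradict themselves. All 12 libraries with HEC in their short name are described as methyl cellulose in the rest of the label, which is also how the MC libraries are described, and they were taken as HEC by the short name, as the study names both media. Every value for HEC, and every difference between MC and HEC, rests on that reading. Replicate 3 of NC at 24 h has 24 h in its short name and 4 h in the rest of its label, and was taken as 24 h.

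ClrA belongs to the Zn2Cys6 family, fungal transcription factors that hold zinc in a cluster of cysteines and bind DNA near the genes they control. Its counterpart CLR-1 in Neurospora crassa is needed for growth on cellulose and for the expression of clr-2, whose counterpart in P. oxalicum is ClrB. Regulators of this group act beside XlnR, a Zn2Cys6 activator of xylanase genes, and CreA, the zinc finger repressor that shuts off many such genes while glucose is present. No genome, promoter or protein sequence was used here, and POX03837 was not placed on a chromosome.

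The values were FPKM, the fragments of a gene scaled by its length and by the mapped reads of the library. A library listed 9243 to 9568 genes, and its FPKM summed to between 924393 and 1255914. Reads per library were not in the files. Factors that bring the bulk of genes to a common level ran between 0.706 and 1.32 across libraries, and rescaling by them shifted the typical gene, by its median log2 fold change over NC, by between -0.093 and 0.39. ClrA moved with it, by between -0.095 and 0.40, and its values are given without rescaling unless stated. Replicate 1 of AV at 12 h stood apart, with a correlation of 0.950 with replicate 3 over the log2 values of all tested genes, and the main results that rest on it are given with and without it. The 3 libraries of GLU at 24 h had correlations of 0.972, 0.964 and 0.967 with each other. They were left out only 1 at a time, within the ranges of the fits that left out 1 library. Replicate 3 of NC at 24 h had correlations of 0.988 and 0.989 with the other NC libraries at 24 h and of 0.851 to 0.877 with those at 4 h. In bulk RNA a change in the share of cells that express a gene and a change in transcript per cell cannot be told apart.

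ClrA was listed in all 72 libraries, with a lowest value of 6.00 FPKM, a median of 20.1 FPKM and a highest value of 127 FPKM. The lowest library was NC at 4 h and the highest was MC at 12 h. Within a library, the percentile of ClrA among the listed genes lay between 25.6 and 88.2. On a log2 scale, the medium accounted for 83.3% of the sum of squares of ClrA over the 72 libraries, the time for 3.31%, their combination for 12.4% and the differences between replicates for 1.08%. Thus its level was set apart mainly between media, and replicates lay close together.

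**Figure D1:**
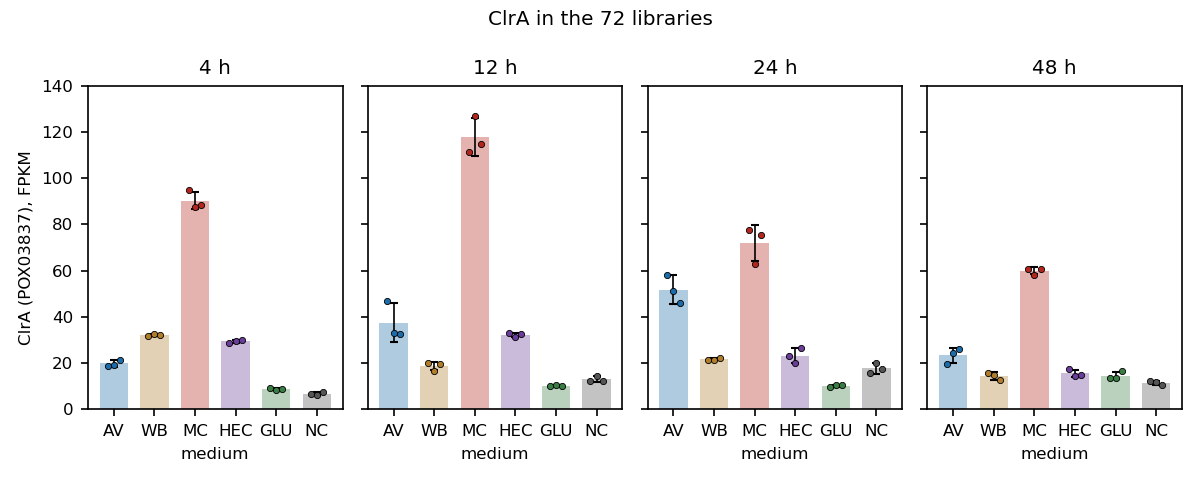
ClrA in each library, in FPKM on a linear axis from 0, with 1 panel for each time after transfer and 1 bar for each medium. Bars are means, error bars are SD (n = 3) and points are libraries. The MC libraries are the highest at each time, between 58.1 and 127 FPKM, while the NC libraries stay between 6.00 and 20.02 FPKM.

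MC gave the highest level of ClrA at each of the 4 times. At 4 h ClrA had 94.8, 87.7 and 88.6 FPKM on MC, against 6.49, 6.00 and 7.32 FPKM on NC. At 12 h it had 111.5, 127 and 114.8 FPKM on MC, against 12.3, 14.6 and 12.3 FPKM on NC. Every MC library stood far above every NC library at both times. At 24 h the values were 77.6, 63.1 and 75.2 FPKM on MC, against 15.5, 20.02 and 17.4 FPKM on NC. At 48 h they were 60.6, 58.1 and 60.9 FPKM on MC, against 12.0, 11.7 and 10.5 FPKM on NC. The groups did not overlap at these later times either, although the distance between them was smaller.

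Each comparison was fitted with limma on log2(FPKM + 1) over 8898 genes, and a gene was called a DEG at an unadjusted p of at most 0.05 with a |log2 fold change| of at least 1. Fold changes on this scale understate the change of genes with low values. ClrA was 13.7-fold higher on MC than on NC at 4 h by the ratio of means, with a log2 fold change of 3.59 ± 0.12 (SE, limma, adjusted p = 3.55e-06), where 4.96% of all genes were called higher. At 12 h the log2 fold change was 3.08 ± 0.11 (limma, adjusted p = 9.38e-07), with 4.47% of genes called higher. It was 1.97 ± 0.12 at 24 h (limma, adjusted p = 4.87e-06), with 5.95% of genes called higher. At 48 h it was 2.30 ± 0.084 (limma, adjusted p = 1.85e-06), with 4.32% of genes called higher. All 4 comparisons thus called ClrA higher on MC. All genes together had a median between -0.42 and -0.22 in these comparisons, and rescaling raised the values of ClrA to 3.82, 3.43, 2.37 and 2.67 at 4, 12, 24 and 48 h.

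On AV, the crystalline cellulose, ClrA was higher than on NC by nearly the same factor at 4, 12 and 24 h. It had 18.9, 19.1 and 21.4 FPKM at 4 h, 47.0, 33.1 and 32.4 FPKM at 12 h, 58.2, 51.2 and 46.0 FPKM at 24 h and 19.4, 24.4 and 26.0 FPKM at 48 h. None of these libraries overlapped with the NC libraries of the same time given above. The log2 fold change over NC was 1.45 ± 0.13 at 4 h (SE, limma, adjusted p = 0.000394), where 4.24% of genes were called higher. It was 1.44 ± 0.19 at 12 h (limma, adjusted p = 0.0103), with 3.17% of genes called higher. At 24 h it was 1.51 ± 0.12 (limma, adjusted p = 5.60e-05), with 4.12% of genes called higher. Without replicate 1 at 12 h, the highest of the 3 AV libraries, the 12 h value was 1.27 and ClrA remained called (limma, adjusted p = 0.00236, range 0.00236 to 0.0601 over the 6 fits that leave out 1 library). At 48 h the log2 fold change of 0.96 ± 0.12 fell just short of the threshold for a DEG (limma, adjusted p = 0.000685), with 5.95% of genes called higher. That 48 h value passed the threshold with a pseudocount of 0.1 (1.01), after rescaling (1.13) and without AV replicate 1 (1.08).

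On HEC, a soluble cellulose ether, ClrA was a DEG at the early times only. It had 28.8, 29.4 and 30.1 FPKM at 4 h, 32.8, 31.3 and 32.5 FPKM at 12 h, 22.9, 20.1 and 26.5 FPKM at 24 h and 17.3, 14.3 and 14.9 FPKM at 48 h. All HEC libraries stood above all NC libraries of their time, at 24 h by a margin of 20.12 against 20.02 FPKM. The log2 fold change over NC was 2.003 ± 0.12 at 4 h (SE, limma, adjusted p = 0.000206), with 2.75% of genes called higher. It was 1.25 ± 0.09 at 12 h (limma, adjusted p = 0.000596), with 2.53% of genes called higher. At 24 h it was 0.38 ± 0.14 (limma, adjusted p = 0.0569) and at 48 h 0.41 ± 0.11 (limma, adjusted p = 0.0190), neither of which reached the threshold of 1, where 3.45% and 4.96% of genes were called higher.

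On WB, a mixed plant material with starch, xylan and cellulose, the increase over NC was past the threshold at 4 h alone. ClrA had 31.6, 32.7 and 32.2 FPKM at 4 h, 20.1, 16.6 and 19.4 FPKM at 12 h, 21.2, 21.4 and 22.2 FPKM at 24 h and 15.6, 14.95 and 12.5 FPKM at 48 h. Every WB library lay above the NC libraries of its time, but from 12 h on by a small margin. The lowest WB library had 16.63, 21.24 and 12.49 FPKM at 12, 24 and 48 h. The highest NC library had 14.55, 20.02 and 12.04 FPKM at these times. At 4 h the log2 fold change over NC was 2.13 ± 0.14 (SE, limma, adjusted p = 1.05e-05), in a comparison that called 11.9% of genes higher. It was 0.49 ± 0.11 at 12 h (limma, adjusted p = 0.00733), 0.29 ± 0.10 at 24 h (limma, adjusted p = 0.0391) and 0.30 ± 0.11 at 48 h (limma, adjusted p = 0.0553). These comparisons called 6.93%, 5.80% and 4.50% of genes higher at 12, 24 and 48 h, and ClrA was not among them.

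On GLU, the repressing sugar, ClrA was not a DEG over NC at any time. It had 8.97, 8.13 and 8.49 FPKM at 4 h, 9.96, 10.6 and 9.96 FPKM at 12 h, 9.36, 10.2 and 10.3 FPKM at 24 h and 13.5, 13.7 and 16.4 FPKM at 48 h. These libraries were above NC at 4 and 48 h and below NC at 12 and 24 h, without overlap at any of the 4 times. The log2 fold change over NC was 0.33 ± 0.11 at 4 h (SE, limma, adjusted p = 0.0420), with 7.78% of genes called higher. It was -0.33 ± 0.10 at 12 h (limma, adjusted p = 0.0171), with 18.4% of genes called lower, and this difference was -0.013 after rescaling. At 24 h it was -0.76 ± 0.15 (limma, adjusted p = 0.00584), with 15% of genes called lower, and at 48 h 0.32 ± 0.10 (limma, adjusted p = 0.0288), with 5.27% called higher.

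**Figure D2:**
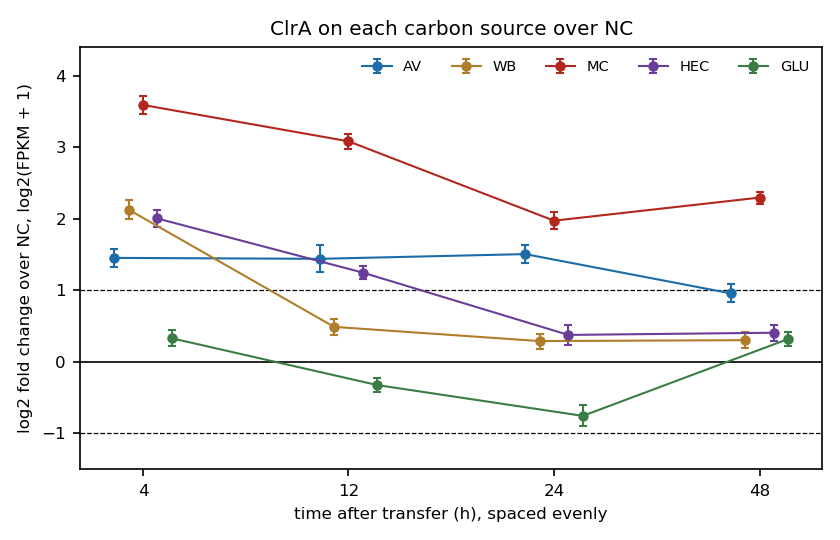
Log2 fold change of ClrA over NC on log2(FPKM + 1) at 4, 12, 24 and 48 h, which are spaced evenly on the axis, for AV, WB, MC, HEC and GLU. Points are limma estimates from 3 against 3 libraries, bars are SE, and dashed lines mark log2 fold changes of 1 and -1. MC stays between 1.97 and 3.59, AV lies between 0.96 and 1.51, and WB and HEC drop below 1 at 12 h and 24 h.

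Over all 4 times together, 10 of the 20 comparisons with NC called ClrA higher and none called it lower. The 10 were MC at 4, 12, 24 and 48 h, AV at 4, 12 and 24 h, HEC at 4 and 12 h and WB at 4 h, and the same 10 held at an adjusted p of at most 0.05. A single value for each pair of media was obtained by averaging the log2 difference over the 4 times, with an exact two-sided permutation test that exchanged libraries within a time. Averaged in this way ClrA was 6.66-fold higher on MC than on NC, 2.53-fold higher on AV, 2.01-fold higher on HEC and 1.74-fold higher on WB. Each of these 4 had an exact p of 1.25e-05, the smallest that the 160000 arrangements allow, and an adjusted p of 2.08e-05 over 15 pairs of media. For GLU over NC the average was 0.93-fold, a difference that did not pass the test (exact permutation p = 0.348, adjusted p = 0.348). After rescaling their mean log2 difference was 0.019, of the opposite sign. Without AV replicate 1 at 12 h the average of AV over NC was 2.46-fold, and without NC replicate 3 at 24 h the averages over NC were 6.65-fold for MC, 2.53-fold for AV, 2.01-fold for HEC, 1.74-fold for WB and 0.93-fold for GLU. Without that NC library the 24 h log2 fold changes over NC were 1.97 on MC, 1.499 on AV, 0.37 on HEC, 0.28 on WB and -0.76 on GLU, with the same calls.

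The order of the media differed between times below MC. At 4 h the mean level fell in the order MC (90.4 FPKM), WB (32.1 FPKM), HEC (29.4 FPKM), AV (19.8 FPKM), GLU (8.53 FPKM) and NC (6.60 FPKM). WB and HEC were next to each other and did not differ beyond their spread, with a log2 fold change of WB over HEC of 0.12 ± 0.12 (SE, limma, adjusted p = 0.378) that was -0.076 after rescaling. AV was lower than HEC by 0.55 ± 0.10 on the log2 scale (limma, adjusted p = 0.0178), without overlap and short of the threshold that 1.22% of genes passed as lower. MC was 2.81-fold above WB, its nearest neighbour, with a log2 fold change of 1.46 ± 0.12 (limma, adjusted p = 1.16e-05) where 16.7% of genes were called higher. AV was 2.32-fold above GLU, with a log2 fold change of 1.12 ± 0.10 (limma, adjusted p = 2.80e-05) where 13.3% of genes were called higher.

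At 12 h the order was MC (117.8 FPKM), AV (37.5 FPKM), HEC (32.2 FPKM), WB (18.7 FPKM), NC (13.0 FPKM) and GLU (10.2 FPKM). MC was 3.14-fold above AV, with a log2 fold change of 1.64 ± 0.18 (limma, adjusted p = 0.00646) where 1.82% of genes were called higher, and 1.81 without AV replicate 1. AV and HEC overlapped and did not differ beyond their spread (log2 fold change 0.19 ± 0.18, limma, adjusted p = 0.537, and 0.023 without AV replicate 1). WB was below HEC by 0.76 ± 0.10 on the log2 scale (limma, adjusted p = 0.000471), without overlap and short of the threshold that 8.04% of genes passed as lower. AV over WB gave 0.95 ± 0.19 (limma, adjusted p = 0.00676), a value beside the threshold that 7.60% of genes passed as higher. It was 1.03 without AV replicate 2, 1.04 without AV replicate 3, 1.00 without WB replicate 1, 0.78 without AV replicate 1 and 1.27 after rescaling.

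At 24 h AV (51.8 FPKM) came within 1.39-fold of MC (71.96 FPKM), followed by HEC (23.2 FPKM), WB (21.6 FPKM), NC (17.6 FPKM) and GLU (9.97 FPKM). MC over AV gave a log2 fold change of 0.47 ± 0.11 (limma, adjusted p = 0.00497), without overlap of libraries but short of the threshold that 5.97% of genes passed as higher. After rescaling these 24 h means lay farther apart, at 76.7 FPKM on MC and 42.1 FPKM on AV. AV over HEC gave 1.13 ± 0.13 (limma, adjusted p = 0.000313) with 6.43% of genes called higher, and 0.89 after rescaling, which is short of the threshold. HEC and WB overlapped, with a log2 fold change of WB over HEC of -0.086 ± 0.11 (limma, adjusted p = 0.582). At 48 h the order was MC (59.9 FPKM), AV (23.2 FPKM), HEC (15.5 FPKM), GLU (14.5 FPKM), WB (14.4 FPKM) and NC (11.4 FPKM). HEC, GLU and WB overlapped, with log2 fold changes of 0.087 ± 0.11 for HEC over GLU (limma, adjusted p = 0.492) and -0.017 ± 0.11 for WB over GLU (limma, adjusted p = 0.902). MC was 2.58-fold above AV, with a log2 fold change of 1.34 ± 0.12 (limma, adjusted p = 5.97e-05) where 3.43% of genes were called higher. AV over HEC gave 0.55 ± 0.13 (limma, adjusted p = 0.0180), without overlap and short of the threshold that 2.74% of genes passed as higher.

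MC, HEC and AV are all forms of cellulose, MC and HEC with methyl and hydroxyethyl groups on the chain and AV without them. Averaged over the 4 times, ClrA was 2.63-fold higher on MC than on AV and 3.31-fold higher on MC than on HEC (exact permutation p = 1.25e-05 and adjusted p = 2.08e-05 for both). AV and HEC were closer, at 1.26-fold higher on AV (exact permutation p = 0.0456, adjusted p = 0.0488). Their difference changed direction with time, since AV was lower at 4 h and higher at 24 and 48 h, and its adjusted p was 0.0703 after rescaling and 0.0768 without AV replicate 1 at 12 h (1.22-fold), so it did not pass in either case. MC over AV was 2.71-fold without that library. WB was 0.87-fold of HEC by the same average (exact permutation p = 0.0357, adjusted p = 0.0412).

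The time course of ClrA differed between media. On MC the mean was 90.4, 117.8, 71.96 and 59.9 FPKM at 4, 12, 24 and 48 h, with its highest value at 12 h. The step between 4 and 12 h on MC was 0.38 ± 0.11 on the log2 scale (SE, limma, adjusted p = 0.0198) and the step between 12 and 24 h was -0.71 ± 0.10 (limma, adjusted p = 0.000727). Neither reached a fold change for a DEG, which 5.6% of genes passed as higher in the first of these steps and 3.10% passed as lower in the next. On AV the highest mean came at 24 h without rescaling. After rescaling the AV mean was 45.7 FPKM at 12 h and 42.1 FPKM at 24 h, so the highest came at 12 h. Without rescaling ClrA fell to 23.2 FPKM at 48 h, against 51.8 FPKM at 24 h. That step of -1.13 ± 0.13 was called (limma, adjusted p = 0.000245), as it was for 7.78% of genes, and was -0.91 after rescaling, which is short of the threshold. The rise on AV between 4 and 12 h was 0.87 ± 0.18 (limma, adjusted p = 0.0145, 5.6% of genes called higher), and 0.70 without replicate 1 at 12 h.

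On WB ClrA was highest at 4 h and lower at 48 h by 1.12 ± 0.12 on the log2 scale (SE, limma, adjusted p = 3.13e-05), a call shared by 15.9% of genes. On HEC the change between 4 and 48 h was -0.89 ± 0.12 (limma, adjusted p = 0.000165), which 7.48% of genes passed as lower. Rescaling took this HEC change past the threshold, to -1.35. On NC, where hyphae had no carbon source, the mean was 6.60, 13.0, 17.6 and 11.4 FPKM at 4, 12, 24 and 48 h. The step on NC between 4 and 12 h was 0.88 ± 0.13 (limma, adjusted p = 0.00163), with 10.3% of genes called higher. On GLU the mean was 8.53, 10.2, 9.97 and 14.5 FPKM at the same times, and 48 over 4 h gave 0.70 ± 0.09 (limma, adjusted p = 0.000140) where 30.2% of genes were called higher. In all, 2 of the 24 comparisons between times called ClrA, both lower, and these 24 called between 2.14% and 15.9% of genes lower.

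Whether the difference from NC itself changed between successive times was tested as an interaction over 12 libraries, at an adjusted p of at most 0.05. For WB the log2 difference from NC was lower at 12 h than at 4 h by 1.64 ± 0.16 (SE, limma, adjusted p = 6.38e-06), where 25.3% of genes passed in the same direction. For HEC it fell by 0.76 ± 0.14 between 4 and 12 h (limma, adjusted p = 0.00660, 2.98% of genes) and by 0.87 ± 0.17 between 12 and 24 h (limma, adjusted p = 0.0149, 4.84% of genes). For MC it fell by 1.11 ± 0.16 between 12 and 24 h (limma, adjusted p = 0.000911, 10.6% of genes). The MC values were lower at 24 h than at 12 h while the NC values were higher. For GLU it fell by 0.65 ± 0.14 between 4 and 12 h (limma, adjusted p = 0.00250, 33.1% of genes) and was higher by 1.08 ± 0.17 at 48 h than at 24 h (limma, adjusted p = 0.000845, 26% of genes). Smaller changes passed for MC between 4 and 12 h (-0.51 ± 0.15, limma, adjusted p = 0.0328, 14% of genes) and for AV between 24 and 48 h (-0.55 ± 0.18, limma, adjusted p = 0.0299, 28.2% of genes), and each was lost in 7 of the 12 fits that left out 1 library. For AV no change was found between 4 and 12 h (-0.013 ± 0.22, limma, adjusted p = 0.972) or between 12 and 24 h (0.067 ± 0.23, limma, adjusted p = 0.834).

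ClrA was also set beside the other regulators, and levels of different genes are compared here as FPKM, which are scaled by length. ClrB (POX01960), the counterpart of CLR-2 and an activator of cellulase genes, had a higher FPKM than ClrA in 62 of the 72 libraries. ClrA was the higher in the other 10, which were all 3 libraries of WB at 4 h, MC at 4 h and MC at 12 h, and replicate 3 of AV at 12 h. The ratio of ClrA to ClrB was 3.70, 4.15 and 3.61 on WB at 4 h, against a median of 0.371 over all libraries. It was 2.33, 2.76 and 2.13 on MC at 4 h and 0.399, 0.376 and 0.357 on MC at 48 h. On WB at 48 h it was 0.104, 0.118 and 0.0953, which includes the lowest library of all. The ratio on NC stayed between 0.198 and 0.367 at every time.

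On MC ClrB (POX01960) averaged 38.0, 71.9, 137.6 and 159.0 FPKM at 4, 12, 24 and 48 h, so it was highest at the time when ClrA on MC was lowest. ClrB was called higher than NC on AV, WB and MC at 24 and 48 h, which is 6 comparisons, and lower than NC on WB at 4 h by 1.59 ± 0.20 on the log2 scale (SE, limma, adjusted p = 0.000268). Of the higher ones, ClrA was called too on AV at 24 h and on MC at 24 and 48 h, and not on WB at 24 and 48 h or on AV at 48 h. In that WB comparison ClrA was called higher, and 21.7% of genes were called lower. On MC at 4 h ClrB gave 0.45 ± 0.21 over NC (limma, adjusted p = 0.118), where ClrA gave 3.59. ClrB-2 (POX02071), a further Zn2Cys6 gene named as a relative of ClrB, was called higher in 11 of 20 comparisons and lower in none. XlnR (POX05324) was called in none of the 20, with log2 fold changes over NC between -0.83 on GLU at 4 h and 0.57 on AV at 24 h (limma, adjusted p = 0.0204 and 0.00545).

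**Figure D3:**
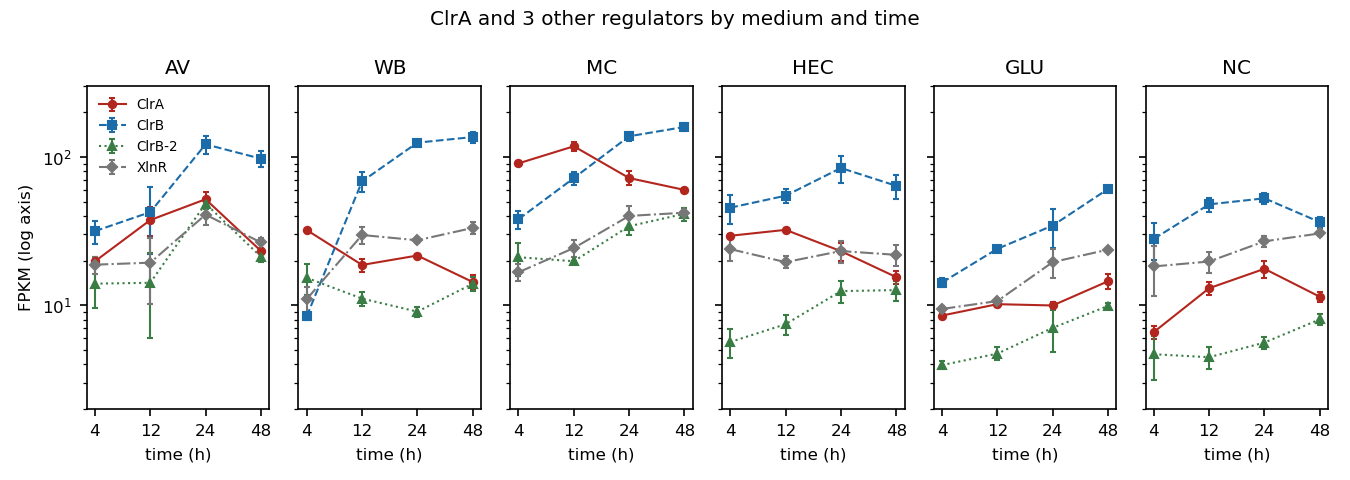
Mean FPKM of ClrA, ClrB, ClrB-2 and XlnR at 4, 12, 24 and 48 h on a log axis, with 1 panel for each medium. Bars are SD (n = 3). ClrA lies above ClrB on WB at 4 h and on MC at 4 and 12 h, and below it on HEC, GLU and NC at all 4 times.

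Of the 16 other regulators examined, each with some published or proposed role in the control of cellulase or xylanase genes, 41 calls over 20 comparisons were higher than NC and 57 were lower. These genes were taken from the study of these same samples, and 5 of them were picked there from the module described below. ClrB, ClrB-2 and XlnR also belong to that module, and the study listed several of the others among its most changed regulators. The counts are therefore not independent evidence. On MC, 3, 3, 6 and 5 of the 16 were called higher at 4, 12, 24 and 48 h, beside the 4.96%, 4.47%, 5.95% and 4.32% of all genes given above. On AV the counts called higher were 2, 2, 4 and 3, beside 4.24%, 3.17%, 4.12% and 5.95% of all genes. On WB they were 1, 1, 3 and 3, beside 11.9%, 6.93%, 5.80% and 4.50%. On HEC they were 1, 0, 2 and 1, beside 2.75%, 2.53%, 3.45% and 4.96%. On GLU they were 1, 0, 0 and 0, beside 7.78%, 7.52%, 4.93% and 5.27%. Called lower at these 4 times on MC were 1, 2, 3 and 3 of the 16, beside 8.22%, 9.54%, 18.2% and 14.5% of all genes. On AV 1, 1, 2 and 3 were called lower, beside 5.1%, 7.19%, 6.27% and 8.92%. The count on AV at 12 h was 3 without AV replicate 1. On HEC 2, 3, 3 and 1 were called lower, beside 6.9%, 1.56%, 4.64% and 3.48%. On WB 7, 2, 3 and 1 were called lower, beside 21.7%, 10.1%, 11.1% and 6.36%. On GLU 5, 5, 7 and 2 were called lower, beside 17.5%, 18.4%, 15% and 9.10%. AmyR (POX03890), the activator of amylase genes, was called lower in 11 comparisons and higher in none. On MC at 24 h AmyR had 12.5 ± 1.4 FPKM, against 156.1 ± 17.6 FPKM on NC (SD, n = 3 each). Its replicates on GLU at 24 h lay far apart, at 21.4, 127.96 and 31.65 FPKM. CreA (POX07254) was called higher on MC at 24 h by 1.03 ± 0.19 (SE, limma, adjusted p = 0.00118) and lower in 3 comparisons, namely on GLU at 4 and 12 h and on WB at 4 h.

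Among 112 further Zn2Cys6 genes that the study listed, 109 passed the filter on low values. The study drew that list from genes that changed in these samples. On MC at 4 h, 4 of the 109 were called higher and 12 lower, beside 4.96% and 8.22% of all genes. Their median log2 fold change was -0.34, beside -0.22 for all genes. On WB at 4 h, 3 were called higher and 62 lower, beside 11.9% and 21.7% of all genes. Their median there was -1.13, beside -0.17 for all genes. ClrA had the highest log2 fold change of the 110 Zn2Cys6 genes, itself included, on MC at 4 and 12 h, on WB at 4 h and on AV at 12 h, where it ranked 3 without AV replicate 1. In the 6 other comparisons that called it, it ranked between 2 and 4.

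The enzymes that such regulators control were examined as lists copied from the study, and each count is given without ClrA. Of 17 cellulase genes, 12, 14, 14 and 14 were called higher on MC than on NC at 4, 12, 24 and 48 h, with median log2 fold changes of 4.49, 6.80, 5.89 and 5.91, where 4.96%, 4.47%, 5.95% and 4.32% of all genes were called higher. On AV the counts were 11, 11, 13 and 14 of 17, beside 4.24%, 3.17%, 4.12% and 5.95% of all genes, and the count at 12 h was 11 also without AV replicate 1. On HEC they were 12, 10, 9 and 10 of 17, beside 2.75%, 2.53%, 3.45% and 4.96% of all genes. On WB they were 9, 11, 14 and 12 of 17, beside 11.9%, 6.93%, 5.80% and 4.50% of all genes. Hence 9 to 14 of the 17 cellulase genes were called higher also in the 5 comparisons on HEC and WB where ClrA was not a DEG. On GLU 0, 2, 2 and 0 were called higher and 5, 2, 4 and 1 lower, beside 7.78%, 7.52%, 4.93% and 5.27% of all genes called higher and 17.5%, 18.4%, 15% and 9.10% called lower.

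Single cellulase genes show the size of these changes. Cel7A-2 (POX05587), a cellobiohydrolase that releases cellobiose from chain ends, had 28070 ± 2234 FPKM on MC at 48 h, against 6.84 ± 1.13 FPKM on NC (SD, n = 3 each). Its mean on MC was 885.6, 7984, 17160 and 28070 FPKM at 4, 12, 24 and 48 h, whereas that of ClrA was highest at 12 h. Cel5B (POX01166), an endoglucanase, had 2737, 5392, 7684 and 13280 FPKM on MC at the same times. Bgl1 (POX06835), a beta-glucosidase, was called higher in 1 comparison and lower in 4.

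Of 19 genes for xylan-degrading enzymes, 4, 5, 5 and 6 were called higher on MC at 4, 12, 24 and 48 h, beside 4.96%, 4.47%, 5.95% and 4.32% of all genes. On AV 9, 10, 13 and 12 were called higher, beside 4.24%, 3.17%, 4.12% and 5.95% of all genes. On HEC the counts were 9, 3, 2 and 4, beside 2.75%, 2.53%, 3.45% and 4.96%. On WB 18, 19, 13 and 15 of the 19 were called higher at the same times, beside 11.9%, 6.93%, 5.80% and 4.50% of all genes, and their median log2 fold change was 5.51 at 12 h, where ClrA gave 0.49. Xyn11A (POX06783), an endo-xylanase, was called higher than NC in all 20 comparisons, and Xyn10A (POX00063) in 16. CdtC (POX06051) and CdtD (POX05915), transporters that carry cellodextrins into the cell, were called higher in all 16 comparisons of AV, WB, MC and HEC with NC. On GLU CdtC was called lower at 4 times and CdtD at 3, where ClrA was not called.

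The genes whose pattern was most like that of ClrA were ranked by Pearson's r over the 24 condition means of log2(FPKM + 1), among 8897 genes. These points share their libraries and their scaling, so r is a description. The highest was POX03836, a hypothetical protein whose identifier precedes that of ClrA, with r = 0.92 and Spearman's rho = 0.91. Its mean on MC was 68.9, 141.7, 109.0 and 129.6 FPKM at 4, 12, 24 and 48 h, against 17.9, 24.6, 29.4 and 26.5 FPKM on NC. POX03836 was a DEG over NC in 7 comparisons, all higher. The beta-glucosidase POX06079 was next (r = 0.90, rho = 0.93), and these were the only genes with r of at least 0.9.

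The remaining 8 of the 10 highest had r between 0.82 and 0.89. They were POX03929, with a P-loop nucleoside triphosphate hydrolase domain (r = 0.89), the polyketide synthase POX03931 (r = 0.86), the major facilitator protein POX03928 (r = 0.85), CdtC (r = 0.85), the FAD-linked oxidase POX03368 (r = 0.84), the beta-glucosidases POX03641 (r = 0.84) and POX03062 (r = 0.84), and the endoglucanase Cel5C (POX01896, r = 0.82). All 10 belong to the co-expression module that the study named MEivory, which was built from these libraries and holds ClrA, so their membership repeats the likeness. The 107 other tested genes of that module had a median r with ClrA of 0.56, beside -0.16 for all genes, and 37 of them had r of at least 0.7. With FPKM that were not log transformed, 6 of the 10 stayed among the 10 highest, and their lowest r was 0.63. Without AV replicate 1 at 12 h, or without NC replicate 3 at 24 h, all 10 stayed, and no r of a named gene moved by more than 0.016.

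ClrB had r = 0.39 with ClrA (rho = 0.47), ClrB-2 had 0.76 (rho = 0.78) and XlnR had 0.36 (rho = 0.30). Of the cellulases, Cel6A had r = 0.79, Cel7A-2 had 0.78 and Bgl1 had 0.0022. AmyR had the lowest r of the named regulators, at -0.55 (rho = -0.56). The likeness to ClrB was 0.49 without MC at 4 and 12 h, the conditions farthest from the median of ClrA.

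**Figure D4:**
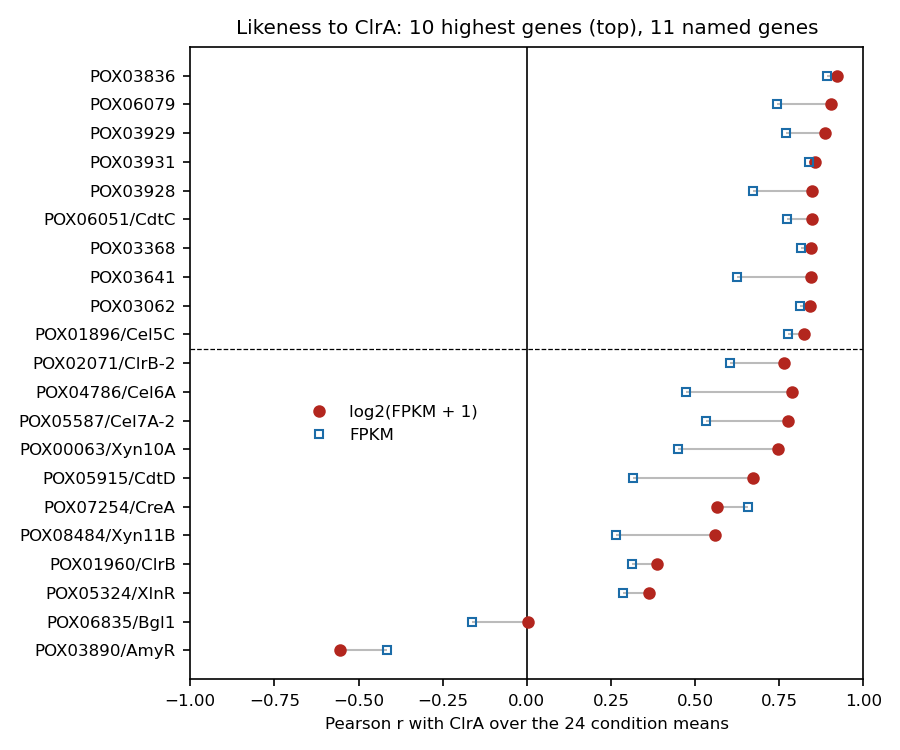
Pearson r with ClrA over the 24 condition means, for the 10 highest genes above the dashed line and 11 named genes below it, which were picked for display after their values were known. Filled circles are r on log2(FPKM + 1) and open squares are r on FPKM. The filled circles run between 0.82 and 0.92 above the line and between -0.55 and 0.79 below it.

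Hyphae can begin to form conidia, the asexual spores, during such a culture, and 12 conidiation genes were followed as markers of that second cell type. Their summed FPKM was 211 to 242 on MC at 4 h, against 273 to 284 on NC. At 12 h it was 2793 to 4164 on MC, against 13240 to 20720 on NC. At 24 h it was 2406 to 3074 on MC, against 6637 to 7406 on NC. At 48 h it was 7562 to 9522 on MC, against 18830 to 27770 on NC. BrlA, the regulator that starts conidium formation, had 0.74 to 2.09 FPKM on MC at 4 h, against 0.99 to 1.15 FPKM on NC, and AbaA had 1.17 to 1.54 FPKM on MC, against 1.33 to 2.69 FPKM on NC. At 12 h BrlA had 3.08 to 3.59 FPKM on MC, against 0.93 to 2.51 FPKM on NC. At 24 h BrlA had 32.3 to 33.45 FPKM on MC, against 8.47 to 10.98 FPKM on NC. BrlA was thus higher on MC without overlap at 12 and 24 h. At 48 h BrlA had 74.5 to 94.4 FPKM on MC, against 117.7 to 177.5 FPKM on NC. AbaA was lower on MC without overlap at 12, 24 and 48 h. At 12 h AbaA had 1.87 to 2.09 FPKM on MC, against 3.07 to 3.73 FPKM on NC. At 24 h AbaA had 2.60 to 3.19 FPKM on MC, against 3.48 to 4.72 FPKM on NC. BrlA and AbaA thus made up little of the summed FPKM, which was carried by other genes of the 12. The part of conidiating cells in the level of ClrA was not tested at any time. Of the 12 genes, 2, 1, 5 and 0 were called higher on MC at 4, 12, 24 and 48 h and 1, 2, 2 and 2 lower, beside 4.96%, 4.47%, 5.95% and 4.32% of all genes called higher and 8.22%, 9.54%, 18.2% and 14.5% called lower. Their median log2 fold change on MC over NC was 0.097, -0.17, 0.65 and -0.64 at these times. That of all genes was -0.22, -0.34, -0.42 and -0.41.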

How the data were processed

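Total RNA of hyphae was sequenced in 72 libraries. The files the authors deposited hold FPKM, 1 value a gene. By their methods, reads were filtered with SOAPnuke, aligned with HISAT and Bowtie2 and counted with RSEM, while the submitters' processing notes list BWA (0.7.10-r789), Bowtie2 (2.1.0), RSEM (1.2.12) and DESeq2. Groups follow the short names in the labels, although the rest of the label reads methyl cellulose for HEC and 4 h for replicate 3 of NC at 24 h. Genes left out of a library were set to 0.

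The 8898 genes that averaged 1 FPKM or more were fitted with limma (3.58.1, R 4.3.3, variance trend) on log2(FPKM + 1), 6 libraries per comparison and 12 per interaction, with Benjamini-Hochberg adjustment over all genes. The fits were tested on simulated data. Exact permutation tests enumerated every arrangement in Python 3.11.15 with numpy 2.4.6, and Spearman's rho used scipy 1.17.1. With 3 against 3 libraries alone, an exact test cannot go below 0.1. Text names ClrA, listed regulators, enzymes and transporters, and the 10 genes most like ClrA. ClrA and the lists were chosen with earlier results of these data known. Alternatives were median-of-ratios rescaling, a replicate block, leaving out each library, adjusted p, a smaller pseudocount (0.1), omitting the filter, and a single fit over every library.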

Additional observations from a re-analysis of the deposited data

Results flagged for a closer look

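The difference of ClrA from NC changed between successive times in 8 of 15 interaction tests, each over 12 libraries at a limma adjusted p of at most 0.05. All are given on the log2 scale as the later minus the earlier difference. For WB the change between 4 and 12 h was -1.64. For HEC it was -0.76 between 4 and 12 h and -0.87 between 12 and 24 h. For MC it was -1.11 between 12 and 24 h. For GLU it was -0.65 between 4 and 12 h and 1.08 between 24 and 48 h.

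The other 2 rested on most of their libraries. For MC the change between 4 and 12 h was -0.51 (limma, adjusted p = 0.0328). It lost its call in 7 of the 12 fits that left out 1 library (MC replicates 1 and 3 and NC replicates 1 and 2 at 4 h, MC replicates 1 and 3 and NC replicate 2 at 12 h), with adjusted p of up to 0.0887 and values between -0.57 and -0.43. For AV the change between 24 and 48 h was -0.55 (limma, adjusted p = 0.0299). It lost its call in 7 of 12 such fits (AV replicates 1 and 2 and NC replicates 1 and 3 at 24 h, AV replicate 1 and NC replicates 1 and 2 at 48 h), with adjusted p of up to 0.0761.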

How the results depend on the processing

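The 20 comparisons of ClrA with NC kept their direction under every alternative and their side of the threshold with 1 exception, AV at 48 h (1.01 with a pseudocount of 0.1, 1.13 rescaled, 0.87 to 1.08 when 1 library was left out). Apart from the fits that left out 1 library, which are given below, most other changes came with median-of-ratios rescaling. The causes of these changes were not tested. Rescaled, AV over WB at 12 h gave 1.27 and HEC at 48 over 4 h -1.35, both then called, whereas AV over HEC at 24 h gave 0.89 and AV at 48 over 24 h -0.91, both then lost. Some values that were not called changed sign on rescaling. They were 0.12 and became -0.076 for WB over HEC at 4 h, and -0.017 and became 0.16 for WB over GLU at 48 h. Between times, AV at 24 over 12 h went from 0.47 to -0.11 and AV at 48 over 4 h from 0.21 to -0.11. HEC at 12 over 4 h went from 0.13 to -0.22. Over all times, GLU over NC gave 0.019 and AV over HEC 0.29, the second no longer passing. Of the interactions, rescaling turned AV between 4 and 12 h (0.15), AV between 12 and 24 h (-0.31), WB between 24 and 48 h (-0.12) and HEC between 24 and 48 h (-0.040), lost AV between 24 and 48 h (-0.40) and MC between 4 and 12 h (-0.39), and gained GLU between 12 and 24 h (-0.56, also gained at -0.43 with all libraries in the fit).

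When 1 library was left out, values that changed sign or side ran from 0.78 to 1.04 (AV over WB, 12 h), -0.18 to 0.011 (WB over HEC, 24 h), -0.076 to 0.074 (WB over GLU, 48 h) and -0.051 to 0.013 (GLU, 24 over 12 h). Among interactions the ranges were -0.18 to 0.079 (AV, 4 to 12 h), -0.025 to 0.24 (AV, 12 to 24 h), -0.64 to -0.43 (AV, 24 to 48 h), -0.079 to 0.10 (WB, 24 to 48 h), -0.57 to -0.43 (MC, 4 to 12 h), 0.23 to 0.41 (MC, 24 to 48 h), -0.062 to 0.13 (HEC, 24 to 48 h) and -0.52 to -0.34 (GLU, 12 to 24 h). MC between 24 and 48 h and GLU between 12 and 24 h were called only without NC replicate 1 at 24 h (0.41 and -0.52).

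Replicate numbers are shared between conditions but did not pair the libraries: in 1 of 20 comparisons with NC every same-numbered pair of deviations correlated above 0.1, the mean correlation was 0.062, and in 1 comparison every library was closest to its own number. The replicate block changed 2 calls for ClrA, both interactions: MC between 4 and 12 h was lost (-0.51, limma adjusted p = 0.0573) and GLU between 12 and 24 h gained (-0.43, limma adjusted p = 0.0464).

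On rescaling, calls lower than NC over the 20 comparisons numbered 14 in place of 22 for cellulase genes, 11 in place of 23 for xylan-degrading enzymes and 239 in place of 364 for Zn2Cys6 genes. Without AV replicate 1 at 12 h, an alternative chosen after seeing the data, 3 regulators in place of 1 were called lower on AV at 12 h. That library also decided AV over HEC averaged over all times, which no longer passed without it (log2 difference 0.29, exact permutation adjusted p = 0.0768). Without NC replicate 3 at 24 h, also chosen after seeing the data, calls at 24 h numbered 1 in place of 2 for regulators lower on AV, 6 in place of 4 for regulators higher on AV and 1 in place of 2 for cellulase genes higher on GLU, and the other changes in the lists named were of 1 or 2 genes. With FPKM not log transformed, 6 of the 10 genes most like ClrA stayed among the 10 highest (lowest r 0.63). Without the NC conditions 7 stayed, and 7 stayed without MC at 4 and 12 h. Depth per library was not in the files, and precision rests on 3 libraries per condition.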
